A study of Mus musculus with 9 samples.

Results

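The genes described here build ribosomes in the nucleolus: 52 genes of nucleolar ribosome biogenesis and RNA polymerase I, chosen by name from a list and all present among the 24060 genes of the table. All 52 passed the filter for detected genes, which kept the 11330 genes with a maximum above 1 TPM, a level corrected for transcript length and scaled to a fixed sum per library. In activated R7-II CD8 T cells, 34 of them were lower than in activated R7-I cells (15.5% of all genes tested were) and 25 were lower than in activated R7-III cells (18.0% of all genes tested). The largest difference was that of Rrp9, which fell by 33.0% of its mean TPM versus R7-I and by 30.0% versus R7-III. R7-I and R7-III lay much closer together, with 3 genes past the test between them, all lower in R7-III (1.45% of all genes tested). These counts are on TPM. Rescaling the libraries by their median gene raised them to 50, 43 and 16, while 29.6%, 28.4% and 3.73% of all genes were then lower. Of genes with a mean at or above that of the lowest member, 50.3%, 43.8% and 7.03% were lower in that scaling.

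R7-I, R7-II and R7-III are transnuclear mouse lines on a BALB/c background, made by nuclear transfer from CD8 T cells, so that the T cells of a line carry the T cell receptor of 1 founder cell. All 3 receptors recognise the ROP7 peptide of Toxoplasma gondii on H-2Ld. The labels rank affinity for the peptide as R7-I, then R7-III, then R7-II, and self-reactivity as R7-III, then R7-I, then R7-II. Because a clone is 1 receptor and 1 line, the receptor and any other difference between the lines cannot be told apart. Splenocytes of each line were cultured overnight with IL-2 at 10 ng/ml and ROP7 peptide at 10 µM, after which CD3+ CD8+ tetramer-binding cells were sorted and their polyadenylated RNA was sequenced in 9 libraries, 3 per clone, called biological replicates in the labels. All groups were thus peptide-activated; unstimulated cells were not analysed here, so no value below is a change upon activation. Nothing in the labels says whether the replicates came from separate animals, and p-values then measure the spread between these libraries, which may be technical.

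Ribosome production starts when RNA polymerase I, placed on the ribosomal DNA by the factors Ubtf, SL1 and Rrn3, transcribes a long precursor RNA in the nucleolus. Small nucleolar ribonucleoproteins (snoRNPs) modify this RNA, the small subunit processome folds and cuts it, and separate sets of helicases, GTPases, methyltransferases and scaffolds assemble the small and large subunits and release them to the cytoplasm. T cells enlarge their nucleoli and raise ribosome production when they leave quiescence, and the transcription factor Myc, which binds the E-box CACGTG, is a known driver of many of these genes.

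The promoters of members holding this E-box are shown because that motif is the regulatory sequence best known for such genes. RefSeq promoter windows of GRCm38.p6, the assembly of mm10, matched 46 of the 52 genes. In the 250 bases before the start, 3 of the 46 (6.52%) held CACGTG, which is its own reverse complement, against 10.3% of 8504 genes tested with a window. The 3 were Nop2 at chr6:125131633-125131882 (plus strand), Imp4 at chr1:34439579-34439828 (plus strand) and Rrn3 at chr16:13780449-13780698 (plus strand), printed 5′ to 3′ with the E-box in capitals.
Nop2: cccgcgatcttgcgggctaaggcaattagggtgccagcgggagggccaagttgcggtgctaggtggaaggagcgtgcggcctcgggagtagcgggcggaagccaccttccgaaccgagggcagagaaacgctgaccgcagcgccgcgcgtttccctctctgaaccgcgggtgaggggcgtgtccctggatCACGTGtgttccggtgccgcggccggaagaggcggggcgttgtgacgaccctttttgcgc
Imp4: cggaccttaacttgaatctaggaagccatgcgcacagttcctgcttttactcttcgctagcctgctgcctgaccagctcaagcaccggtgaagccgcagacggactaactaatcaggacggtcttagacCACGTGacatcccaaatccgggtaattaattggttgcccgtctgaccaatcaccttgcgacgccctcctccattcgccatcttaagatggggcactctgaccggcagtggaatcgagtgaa
Rrn3: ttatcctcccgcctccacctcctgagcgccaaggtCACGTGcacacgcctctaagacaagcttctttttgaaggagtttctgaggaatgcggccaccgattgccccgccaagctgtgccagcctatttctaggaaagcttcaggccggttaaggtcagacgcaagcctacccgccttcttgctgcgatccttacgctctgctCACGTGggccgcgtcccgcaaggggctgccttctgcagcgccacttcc

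In Nop2 the motif began 60 bases before the start and in Imp4 121 bases before it, while Rrn3 held a pair, 215 and 48 bases before its start. The GC box GGGCGG, searched on both strands and able to share its end base with an E-box, was in 65.2% of the members' windows and in 64.1% of those of the genes tested, counted by gene. When the first 50 transcribed bases were added, a choice made after seeing the data, 9 of 46 members (19.6%) held an E-box against 12.4% of the genes tested. The 6 further sites lay just after the start and are shown as 30 bases each, E-box in capitals.
Ltv1, chr10:13193092-13193121, minus strand: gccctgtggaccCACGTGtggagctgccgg
Utp20, chr10:88826765-88826794, minus strand: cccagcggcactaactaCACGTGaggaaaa
Pes1, chr11:3963965-3963994, plus strand: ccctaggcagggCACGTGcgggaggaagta
Mybbp1a, chr11:72441347-72441376, plus strand: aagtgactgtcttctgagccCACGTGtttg
Tsr1, chr11:74898092-74898121, plus strand: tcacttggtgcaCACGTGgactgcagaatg
Wdr43, chr17:71616220-71616249, plus strand: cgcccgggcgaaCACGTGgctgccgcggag

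A match is a run of letters and not a measured binding site. On TPM, R7-II was at -0.36 versus R7-I on the log2 scale for Nop2, -0.23 for Imp4 and -0.19 for Rrn3, and for the sites after the start it went from -0.21 for Mybbp1a to 0.02 for Tsr1, the latter -0.17 after the median-of-ratios scaling described below.

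Between 13738 and 14434 genes were above 0 TPM in a library, and within clones, libraries correlated across genes with a Pearson's r of 0.992 to 0.997 on the log2(TPM + 1) scale. TPM holds no depth, so no counting error can be given for any gene, and the 3 libraries per clone set the precision. Of 5 T cell markers (Cd3d, Cd3e, Cd3g, Cd8a, Cd8b1), summed TPM was 1369 to 1411 in R7-I, 1579.7 to 1597 in R7-III and 2064 to 2113 in R7-II, and all 5 were higher in R7-II versus each other clone. Markers of other spleen cells were low but moved the same way: B cell markers, 4 of 4 higher in R7-II in both comparisons, summed to 6.56 to 12.2 TPM in R7-I, 4.03 to 5.95 in R7-III and 28.8 to 60.4 in R7-II. MHC class II genes, likewise 4 of 4, summed to 27.5 to 43.8, 19.5 to 22.6 and 100.4 to 167 TPM in the same order, and myeloid markers, 4 of 5 higher versus R7-I and 5 of 5 versus R7-III, to 3.93 to 5.10, 4.84 to 6.33 and 22.1 to 72.2 TPM. Erythroid genes, 1 lower in R7-II versus R7-I and 0 versus R7-III, summed to 43.6 to 129, 12.9 to 38.8 and 1.80 to 21.0 TPM. Cd4 and the NK cell markers stayed at or under 1 TPM. These marker calls are on TPM, where 40.6% and 35.6% of all genes tested were higher in R7-II than R7-I and R7-III. After median-of-ratios scaling 4 and 3 of the 5 T cell markers were higher, as were 25.2% and 25.0% of all genes. In that scaling the B cell and MHC class II counts stayed at 4 of 4, and 4 of 5 myeloid markers were higher in each comparison. The sort purity was stated as 90 to 95%, and the part of these other cells in the results below was not tested. In sorted bulk RNA, fewer cells of a type and less RNA per cell cannot be told apart.

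Taken as a group, the 52 genes held 1.68% to 2.01% of all TPM in the clone means. Their summed level was 20123, 20075 and 19977 TPM in R7-I replicates 1, 2 and 3, 19044, 18918 and 19482 in R7-III, and 16771, 16584 and 16897 in R7-II. The 3 R7-II libraries were the lowest of the 9, and the R7-III libraries lay below those of R7-I without overlap. The means were 20058 ± 74.5 TPM in R7-I, 19148 ± 296 TPM in R7-III and 16750.5 ± 157 TPM in R7-II (SD, n = 3 libraries), which is 2.01%, 1.91% and 1.68% of all TPM. The difference of the means was -16.5% for R7-II versus R7-I, -12.5% for R7-II versus R7-III and -4.54% for R7-III versus R7-I on TPM, and -26.7%, -20.3% and -8.05% after median-of-ratios scaling, which divides each library by the median ratio of its genes to a common reference. Npm1 was the main single part of this sum, and without it the differences were -14.0%, -10.1% and -4.34% on TPM and -24.5%, -18.0% and -7.86% after that scaling.

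**Figure D1:**
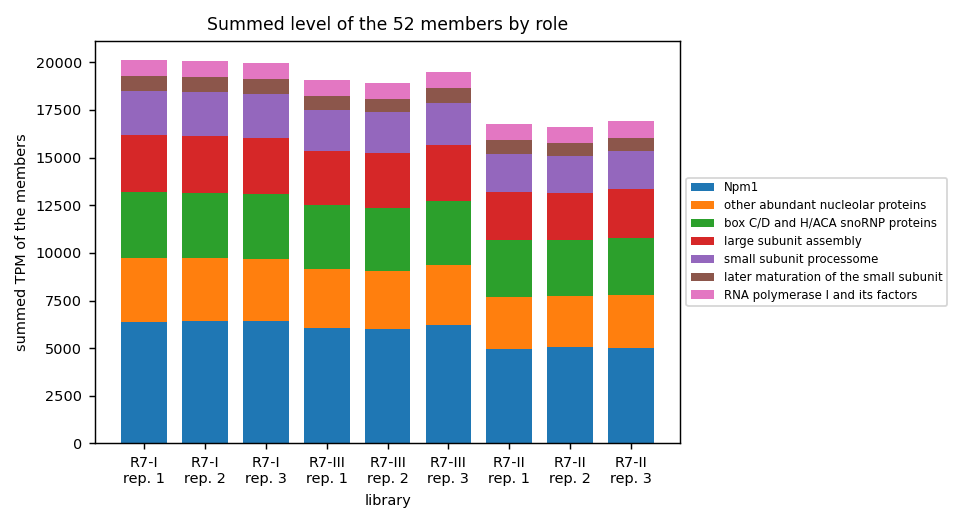
Stacked bars give the summed TPM of the 52 genes in each of the 9 libraries (y axis, TPM from 0), split by role with Npm1 apart. The R7-II bars stand at 16584 to 16897 TPM and those of the other clones at 18918 to 20123 TPM, while the top segment, RNA polymerase I and its factors, is nearly as tall in R7-II as elsewhere on this TPM scale (-2.40% versus R7-I, but -14.3% after median-of-ratios scaling).

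Each gene was tested with limma on log2(TPM + 1), in 1 fit of the 9 libraries, and p-values were adjusted by Benjamini-Hochberg over the 11330 genes tested, with a threshold of 0.01. Against R7-I, 34 of the 52 were lower and 1 was higher in R7-II, where 15.5% of all genes tested were lower and 40.6% higher. Against R7-III, 25 were lower and 3 higher in R7-II, with 18.0% and 35.6% of all genes tested. Between R7-III and R7-I, 3 were lower in R7-III and 0 higher by limma, with 1.45% and 6.96% of all genes tested. At an unadjusted p of 0.05 the counts were 25 lower and 0 higher, against 964 and 2697 of the 11330 genes tested. At that p, 2310 genes tested were lower and 5732 higher in R7-II versus R7-I, and 2691 and 5227 versus R7-III. The 3 members lower in R7-III became 0 without R7-I replicate 1, R7-I replicate 3, R7-III replicate 1 or R7-III replicate 2, and 1 without R7-I replicate 2 or R7-III replicate 3. These comparisons share libraries and are not independent of each other.

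The members were well expressed, from a mean of 33.1 TPM for Polr1e to 5842 TPM for Npm1, which ranked 8 among all genes tested. Their median of 172 TPM stood against 22.3 TPM over all genes tested, so a second background, chosen after seeing the data, took the 4494 genes with a mean at or above that of Polr1e. Among these, 25.2% were lower in R7-II versus R7-I, 25.9% versus R7-III, and 2.29% were lower in R7-III versus R7-I. Higher calls were 34.0%, 31.2% and 6.92%.

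The direction of small differences depended on how libraries were scaled, since TPM put the median gene 0.17 above 0 on the log2 scale for R7-II versus R7-I, 0.12 above 0 versus R7-III and 0.04 above 0 for R7-III versus R7-I. The median log2 fold change of the 52 genes was -0.18, -0.12 and -0.07 in these comparisons, or -0.34, -0.24 and -0.11 relative to the median of all genes. After median-of-ratios scaling, which sets the median gene near 0, the members' medians were -0.36, -0.26 and -0.12. In that scaling 50, 43 and 16 members were lower, among them all 34, 25 and 3 of the calls on TPM, while 29.6%, 28.4% and 3.73% of 11276 genes were lower. By limma 0 members were higher in each, where 25.2%, 25.0% and 4.87% of these genes were. Among the genes at or above the level of Polr1e, that scaling made 50.3%, 43.8% and 7.03% lower, so under it a larger share of well expressed genes than of all genes was lower. The median log2 fold change of these 4494 genes was 0.03, 0.02 and 0.01 on TPM. It was -0.15, -0.11 and -0.04 after that scaling. Against this background the members differed less than against all genes. Quantile normalization gave medians of -0.14, -0.08 and -0.08. Relative to the median of all genes these were -0.12, -0.09 and -0.06, smaller than on TPM.

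The values and calls of single genes given below are on TPM unless a scaling is named, so a gene that did not pass is one that did not pass on TPM. After median-of-ratios scaling every member except Taf1d and Ubtf was lower in R7-II than R7-I, and every member except Taf1d, Ubtf, Utp14a, Nol6, Nol10, Ddx10, Ltv1, Tsr1 and Noc3l was lower than in R7-III (limma, threshold 0.01). The role-group counts below stand beside 15.5% and 18.0% of all genes tested lower versus R7-I and R7-III on TPM, and 40.6% and 35.6% higher. After that scaling 29.6% and 28.4% of all genes were lower, and 50.3% and 43.8% of those at or above the level of Polr1e.

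**Figure D2:**
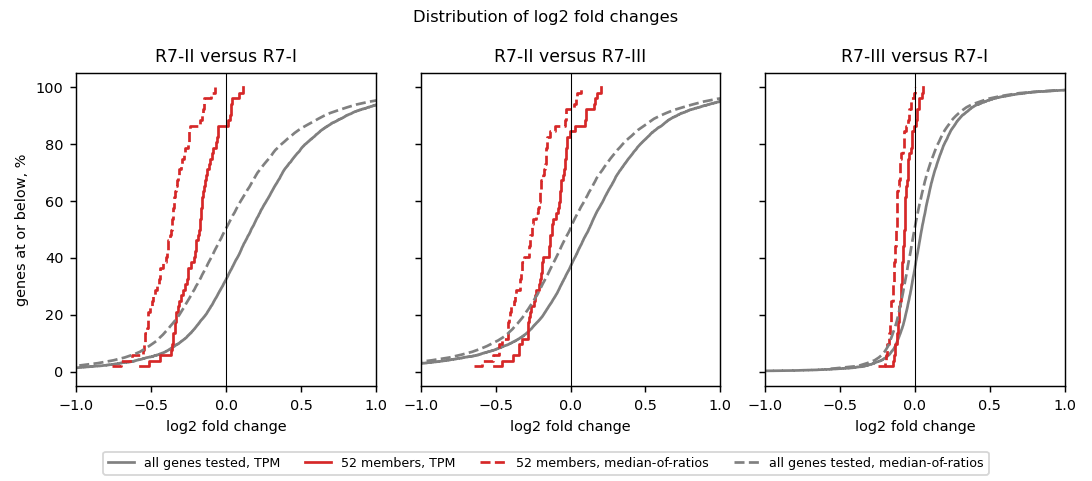
Each panel plots, for 1 comparison, the percent of genes (y axis) at or below a log2 fold change (x axis, cropped at -1 and 1) for all genes tested (grey) and the 52 members (red), on TPM (solid) and after median-of-ratios scaling (dashed). The red curves lie left of the grey ones around their middle, with member medians of -0.18, -0.12 and -0.07 on TPM, and both pairs of curves move left with the scaling.

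In 30 of the 52 genes all 3 R7-II libraries were below the other 6, which held for 17.4% of all genes tested, and in 2 (Taf1d and Noc3l) all 3 were above, which held for 41.7%. After median-of-ratios scaling these counts were 45 (30.1% of all genes) and 0 (28.5%). The order of the clone means was R7-I, R7-III, R7-II in 37 genes (71.2%, against 11.3% of all genes tested), the order that the labels give for affinity. It was R7-III, R7-I, R7-II, the labelled order of self-reactivity, in 7 (13.5%, against 17.4% of genes): Nop16, Nop56, Nhp2, Noc4l, Ppan, Bop1 and Polr1a. In 7 others (13.5%, against 21.7%) R7-II was highest and R7-III lowest (Taf1d, Ubtf, Nol6, Nol10, Ddx10, Tsr1 and Noc3l), and in Ltv1 R7-III was lowest with R7-I highest. The first order held for 48 members (92.3%, against 24.1% of genes) after median-of-ratios scaling and for 32 (61.5%, against 23.6%) after quantile normalization. The second held for 0 members (against 19.8% of genes) and 5 (9.62%, against 20.6%), and R7-II was highest with R7-III lowest in 0 (against 20.7%) and 4 (7.69%, against 23.3%). R7-III and R7-I, the upper neighbours of the first order, differed past the threshold in only 3 members on TPM and in 16 after median-of-ratios scaling. At an unadjusted p of 0.05 on TPM, 25 members were lower in R7-III. In some that missed the threshold on TPM, such as Npm1 and Fbl, the libraries of these clones did not overlap.

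**Figure D3:**
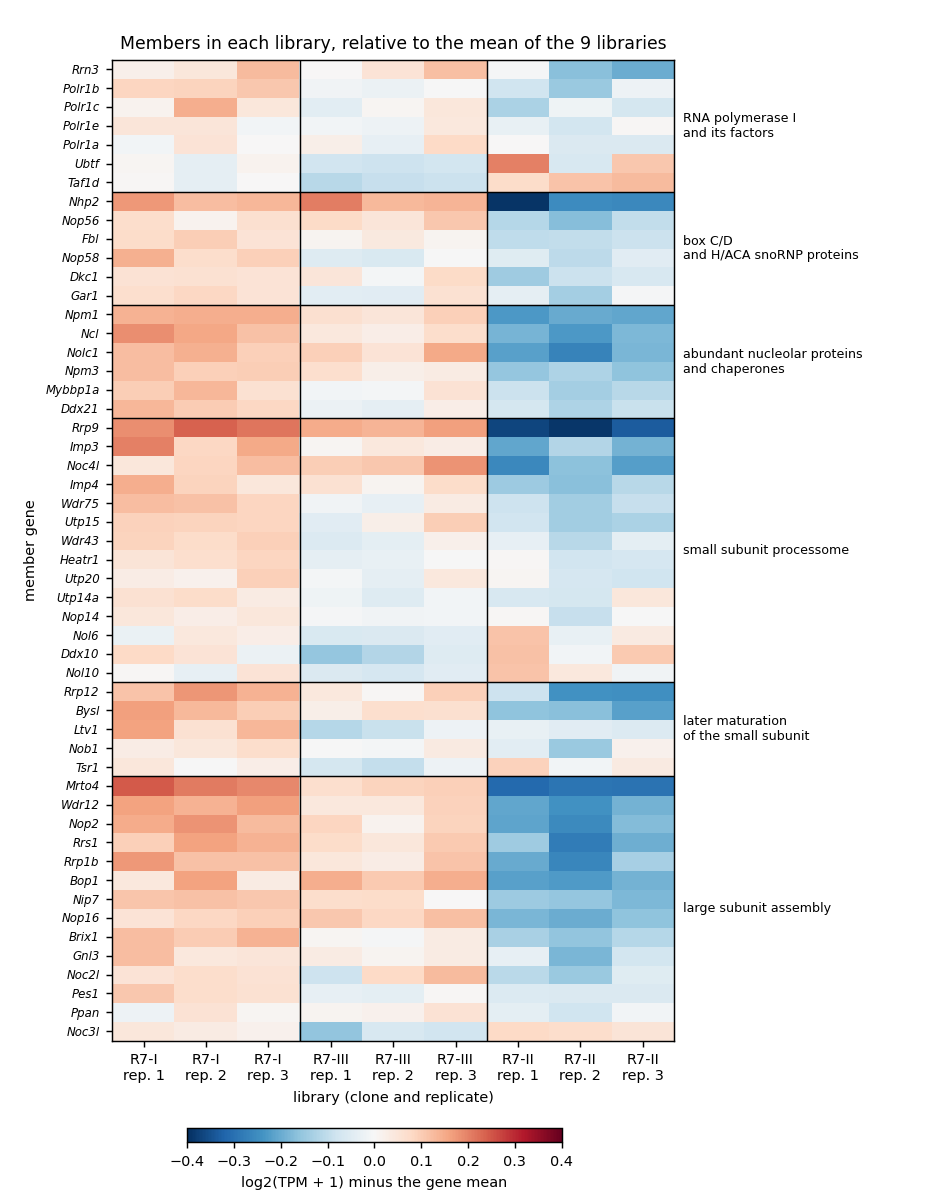
Rows are the 52 genes grouped by role, columns the 9 libraries, and colour is log2(TPM + 1) minus the gene's mean over the 9 libraries (blue lower, red higher, from -0.4 to 0.4). The R7-II columns are blue in most genes. Taf1d and Noc3l are red there on TPM, and Ddx10 is red in R7-II replicates 1 and 3. The higher calls of Taf1d, Noc3l and Ddx10 versus R7-III are lost after median-of-ratios scaling. After quantile normalization that of Taf1d is kept and those of Noc3l and Ddx10 are lost.

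RNA polymerase I and its factors had a median log2 fold change in R7-II of -0.06 versus both other clones on TPM, which was -0.24 versus R7-I and -0.19 versus R7-III after median-of-ratios scaling. Of 7 genes, Polr1b was lower and Taf1d higher in R7-II than R7-I, and versus R7-III 0 were lower and Taf1d was higher (by unadjusted p, 1 lower and 2 higher). After median-of-ratios scaling 5 of the 7 were lower and 0 higher in both comparisons (limma), Polr1a, Polr1b, Polr1c, Polr1e and Rrn3, so the counts for this group followed the scaling. The summed level of the 7 was 863 ± 7.68 TPM in R7-I, 828 ± 14.8 in R7-III and 842 ± 17.6 in R7-II, with R7-II overlapping both on TPM. After median-of-ratios scaling it was 906 to 918 in R7-I, 838 to 847 in R7-III and 771 to 784 in R7-II, without overlap, and R7-II was at -14.3% versus R7-I (-2.40% on TPM). Without these 7, the other 45 members had medians of -0.20 and -0.14 on TPM in the comparisons of R7-II with R7-I and R7-III, and -0.39 and -0.27 after that scaling.

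Polr1b, the second largest subunit of the polymerase, was at 106, 106 and 108 TPM in R7-I, 98.8, 98.2 and 99.7 in R7-III, and 94.5, 90.0 and 98.5 in R7-II. R7-I was above the other clones without overlap, while R7-II and R7-III overlapped. R7-II was at -0.18 versus R7-I (standard error 0.04, limma adjusted p = 0.00119) and -0.07 versus R7-III (adjusted p = 0.107, limma), the latter -0.20 after median-of-ratios scaling (adjusted p = 0.000255, limma). Polr1c, a subunit shared with RNA polymerase III and the most abundant of the group, was at 184, 202 and 188 TPM in R7-I, 177, 183 and 188 in R7-III, and 167, 179.8 and 174 in R7-II. Its R7-II libraries were below R7-I but overlapped R7-III, and the difference from R7-I missed the threshold (-0.14, limma adjusted p = 0.0128), though it passed without R7-II replicate 2 (adjusted p = 0.00784, limma). After median-of-ratios scaling Polr1c passed in both comparisons, at -0.33 and -0.21 (adjusted p = 0.000235 and 0.00413, limma).

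Rrn3, the initiation factor TIF-IA that links the polymerase to growth signals, was at 83.2, 84.6 and 89.6 TPM in R7-I, 82.1, 85.2 and 89.3 in R7-III, and 81.9, 73.0 and 71.4 in R7-II. R7-II replicate 1 lay just under the other clones and the other two lower still. The log2 fold changes of -0.19 versus R7-I and -0.18 versus R7-III missed the threshold (adjusted p = 0.0112 and 0.0133, limma), and without R7-II replicate 1 they were -0.25 and -0.24 and passed (adjusted p = 0.00115 and 0.00139, limma). With all 9 libraries Rrn3 passed in both comparisons after median-of-ratios scaling (-0.37 and -0.31, adjusted p = 4.22e-05 and 0.000141, limma) and after quantile normalization (-0.27 and -0.24, adjusted p = 0.000841 and 0.00159, limma).

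Taf1d, a subunit of the promoter factor SL1, went against most members. It was at 171, 166 and 171 TPM in R7-I, 158, 159.6 and 160.4 in R7-III, and 179, 184 and 186 in R7-II, so the R7-II libraries were the highest of the 9. Its log2 fold change was 0.11 versus R7-I (standard error 0.03, limma adjusted p = 0.00341) and 0.20 versus R7-III (standard error 0.03, limma adjusted p = 8.42e-05), but after median-of-ratios scaling it was -0.07 and 0.07 and passed neither time (adjusted p = 0.0765 and 0.0970, limma). After quantile normalization Taf1d was at 0.13 and 0.25 and passed in both comparisons (adjusted p = 0.00181 and 3.35e-05, limma). The call versus R7-I was also lost without R7-I replicate 2 (adjusted p = 0.0173, limma) or R7-II replicate 3 (adjusted p = 0.0151, limma). Polr1a and Polr1e, the largest subunit and a smaller one, were at -0.05 and -0.06 versus R7-I and at -0.06 and -0.04 versus R7-III on TPM and did not pass. After median-of-ratios scaling both passed in both comparisons, Polr1a at -0.24 and -0.19 (adjusted p = 9.68e-05 and 0.000423, limma) and Polr1e at -0.24 and -0.17 (adjusted p = 0.000251 and 0.00300, limma), and Polr1e also after quantile normalization (-0.27 and -0.19, adjusted p = 0.000183 and 0.00170, limma). Ubtf, the architectural factor of the ribosomal DNA, was at 0.09 and 0.16 on TPM without passing. It was at -0.10 and 0.03 after median-of-ratios scaling, so the sign versus R7-I turned, and at 0.11 and 0.21 after quantile normalization, which passed versus R7-III (adjusted p = 0.00595, limma). It varied most within a clone of all members (coefficient of variation 9.30% in R7-II, against a member median of 2.77% there, 1.87% in R7-I and 2.19% in R7-III).

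Among the 6 proteins of the box C/D and H/ACA snoRNPs, which carry the RNA guides for methylation and pseudouridylation, 5 were lower in R7-II than R7-I and 4 lower than in R7-III. By limma 0 were higher, and 0 were higher at an unadjusted p of 0.05. After median-of-ratios scaling all 6 were lower in both comparisons, as were 29.6% and 28.4% of all genes. After quantile normalization Nop56, Nop58 and Dkc1 no longer passed versus R7-I, and Dkc1 no longer passed versus R7-III. Nhp2, a core protein of the H/ACA particles and of telomerase at chr11:51619773-51623718, differed most in this group. It was at 514, 497 and 499 TPM in R7-I, 526, 498 and 500.5 in R7-III, and 347, 383 and 381 in R7-II. The R7-II libraries lay far below the other 6, which overlapped each other. R7-II differed on the log2 scale by -0.44 versus R7-I (standard error 0.04, limma adjusted p = 4.18e-06) and -0.46 versus R7-III (standard error 0.04, limma adjusted p = 3.49e-06). R7-III and R7-I were not parted (0.01, adjusted p = 0.857, limma), and the sign of that small value turned after median-of-ratios scaling (-0.04).

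Nop56 (-0.18 and -0.21) and Dkc1 (-0.15 and -0.14), the core proteins of each kind of particle, were lower versus R7-I and R7-III as well, while Gar1 (-0.13 and -0.05) passed in neither. After quantile normalization Nop56 was at -0.06 and -0.10 (limma adjusted p = 0.0574 and 0.00591) and Dkc1 at -0.09 and -0.08 (limma adjusted p = 0.0192 and 0.0396). Fbl, the fibrillarin methyltransferase of the box C/D particles and the most abundant of the 6, was at 1026, 1043 and 1013 TPM in R7-I, 983, 1001 and 982 in R7-III, and 907, 909 and 919 in R7-II. The clones did not overlap, with R7-II lowest. R7-II was at -0.17 versus R7-I (limma adjusted p = 4.77e-05) and -0.12 versus R7-III (limma adjusted p = 0.000747). Nop58, a core protein of the same particles, had another pattern, with 656, 625 and 635 TPM in R7-I, 574, 569.8 and 594 in R7-III, and 575, 553 and 576 in R7-II.

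In Nop58 both R7-II and R7-III were below R7-I and overlapped each other. It was 1 of the 3 genes lower in R7-III than R7-I (log2 fold change -0.14, standard error 0.03, limma adjusted p = 0.00767), but that call was kept only without R7-II replicate 1 or 2 among the libraries left out in turn (limma adjusted p from 0.00539 to 0.0388). Against R7-I, R7-II was at -0.17 (limma adjusted p = 0.000400), and after quantile normalization at -0.05 (limma adjusted p = 0.177). Against R7-III the value was -0.03 on TPM (limma adjusted p = 0.405), -0.16 after median-of-ratios scaling and 0.07 after quantile normalization, so no direction held.

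The 6 abundant nucleolar proteins and chaperones (Ncl, Npm1, Npm3, Nolc1, Ddx21, Mybbp1a) were all lower in R7-II than R7-I, and 5 were lower than in R7-III, or 6 after median-of-ratios scaling. Of all genes, 15.5% and 18.0% were lower in these comparisons on TPM, and 29.6% and 28.4% after that scaling. Npm1, the histone and ribosome chaperone nucleophosmin at chr11:33152498-33164142, was at 6396, 6418 and 6432 TPM in R7-I, 6077, 6013 and 6201 in R7-III, and 4956, 5054 and 5029.8 in R7-II. The clones were fully apart and the R7-II libraries were lowest. On the log2 scale R7-II was at -0.36 versus R7-I and -0.28 versus R7-III (standard error 0.02 in both, limma adjusted p = 2.07e-07 and 8.97e-07). Npm1 has many processed pseudogenes in the mouse, between which reads could be split, so its absolute level is uncertain.

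Ncl, the RNA-binding protein nucleolin, was at -0.35 and -0.24, the histone chaperone relative Npm3 at -0.25 and -0.19, and Mybbp1a at -0.21 and -0.13 versus R7-I and R7-III, all past the threshold. After quantile normalization Mybbp1a passed in neither (-0.09 and -0.01, limma adjusted p = 0.0253 and 0.728), while Ncl and Npm3 passed in both. Nolc1, a chaperone of snoRNPs (Nopp140), was at 406, 411 and 397 TPM in R7-I, 398, 386 and 413 in R7-III, and 319.7, 309 and 328 in R7-II. R7-I and R7-III overlapped and R7-II lay below both (-0.34 and -0.32, standard error 0.03 in both, limma adjusted p = 6.23e-06 and 1.01e-05). Ddx21, a helicase that couples polymerase I transcription to RNA processing, was at 584, 572 and 565 TPM in R7-I, 524, 519 and 542 in R7-III, and 508, 489 and 501 in R7-II. Its steps were more even, with no overlap between clones: R7-II was lower than R7-I (-0.20, limma adjusted p = 6.92e-05) and did not pass versus R7-III (-0.08, limma adjusted p = 0.0177), where it was at -0.22 after median-of-ratios scaling and at 0.03 after quantile normalization.

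**Figure D4:**
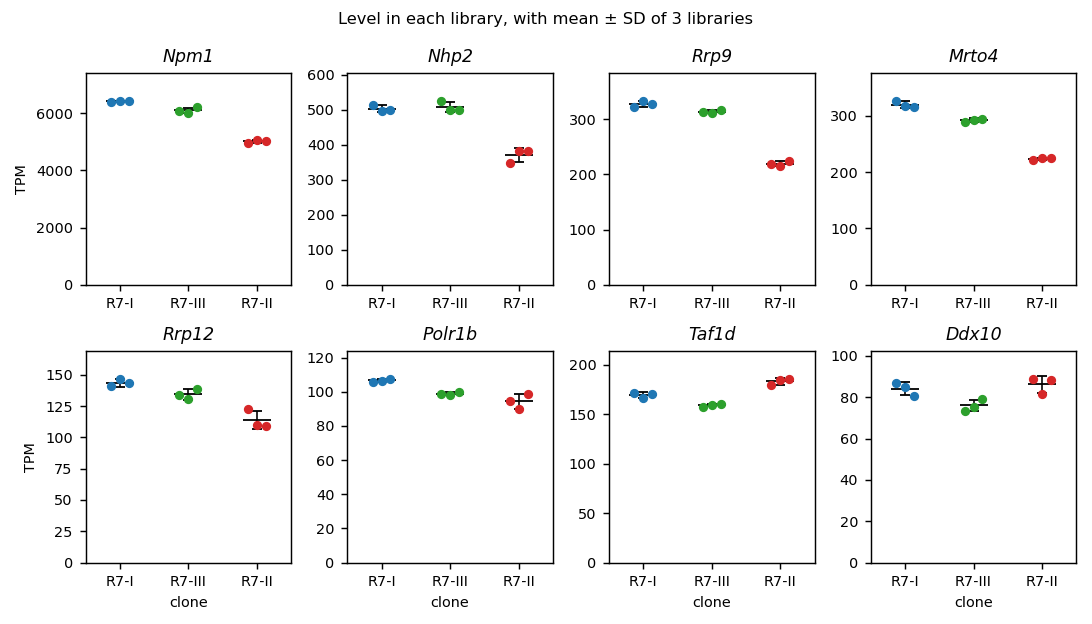
Points are TPM in each library (y axes from 0) for 8 members by clone, with the mean and SD of 3 libraries in black. Npm1, Nhp2, Rrp9, Mrto4 and Rrp12 are lowest in all 3 R7-II libraries, Polr1b falls less, and Taf1d and Ddx10 are higher in R7-II than R7-III, calls that were lost after median-of-ratios scaling. The call of Taf1d was kept after quantile normalization and that of Ddx10 was not.

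Of the 14 genes of the small subunit processome, 8 were lower and 0 higher in R7-II than R7-I by limma (10 and 0 at an unadjusted p of 0.05), and 5 were lower and 1 higher than in R7-III. After median-of-ratios scaling 14 and 10 were lower and 0 higher (limma), where 29.6% and 28.4% of all genes were lower. Rrp9, the protein that marks the U3 snoRNP at chr9:106477309-106485415, had the largest difference of all 52 members. It was at 322, 333 and 328 TPM in R7-I, 313, 311 and 317 in R7-III, and 219, 216 and 224 in R7-II. The R7-II libraries lay far under the other 6, which spanned a narrow range. The log2 fold change was -0.58 versus R7-I and -0.51 versus R7-III (standard error 0.03 in both, limma adjusted p = 6.20e-08 and 1.37e-07).

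Others of the U3 particle and its partners moved with it: Imp3 was at -0.32 and -0.20, Imp4 at -0.23 and -0.19, and Noc4l at -0.30 and -0.34 versus R7-I and R7-III, all past the threshold. Of the t-UTP proteins, which bind the precursor RNA early, Utp15 was lower against both clones (-0.20 and -0.14), while Heatr1, Wdr43 and Wdr75 were lower versus R7-I (-0.11, -0.15 and -0.21) and did not pass versus R7-III (-0.02, -0.04 and -0.10). Utp20, Nop14, Utp14a, Nol6 and Nol10 passed in neither comparison on TPM, with values from -0.09 to 0.04 versus R7-I, and were lower than in R7-I after median-of-ratios scaling, which turned the sign of Nol6 and Nol10. Exons of Utp14a overlap a gene on the other strand over 11.5% of their length, and the reads carried no strand, so its value may hold reads of the other gene.

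Ddx10, a helicase of the processome, was at 86.7, 85.1 and 80.5 TPM in R7-I, 73.5, 75.4 and 79.1 in R7-III, and 89.0, 81.4 and 88.2 in R7-II. R7-III was lowest without overlap, and R7-I and R7-II overlapped. R7-II was higher than R7-III on TPM (0.18, standard error 0.05, limma adjusted p = 0.00560), at 0.05 after median-of-ratios scaling (limma adjusted p = 0.325), and the call was lost in 4 of 9 fits with a library left out, those without R7-II replicate 1 or 3 or R7-III replicate 1 or 2 (limma adjusted p = 0.0213, 0.0217, 0.0271 and 0.0205).

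**Figure D5:**
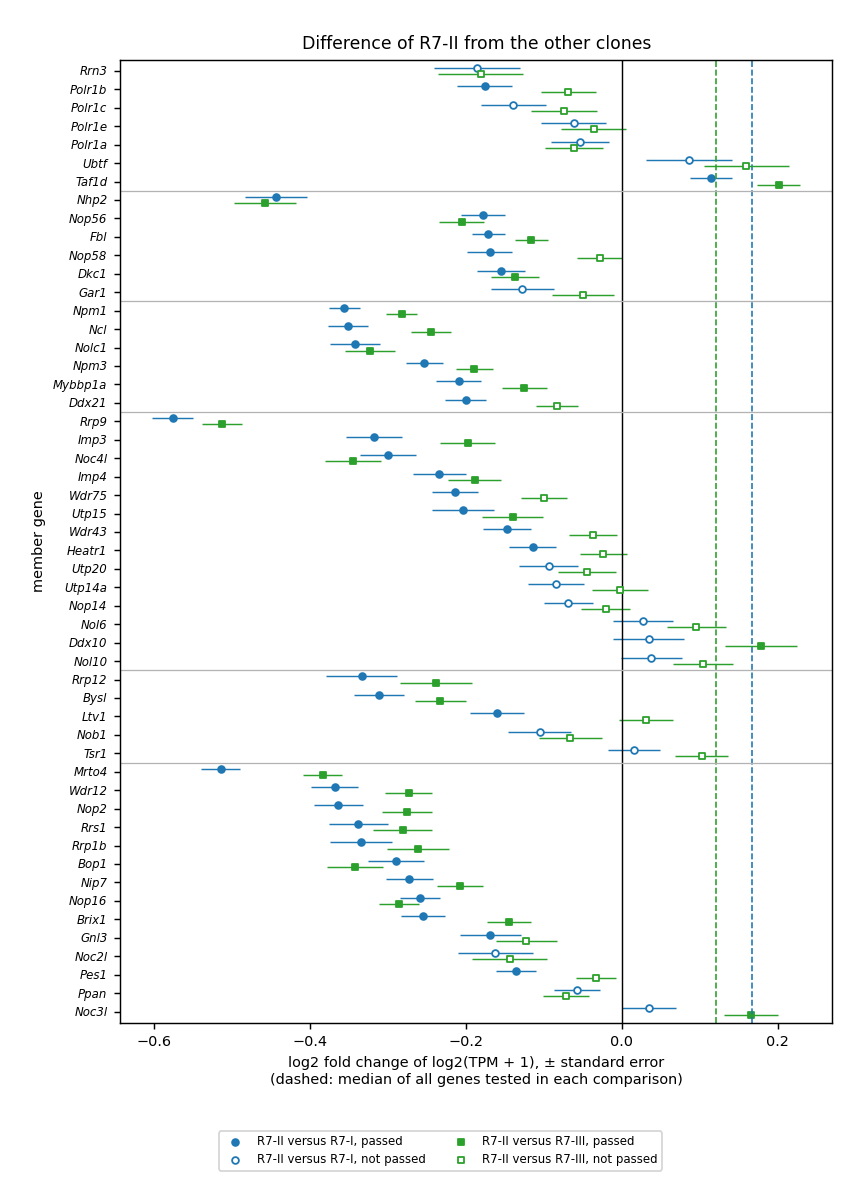
Points are log2 fold changes of log2(TPM + 1) with their standard errors for R7-II versus R7-I (blue circles) and R7-III (green squares), filled where the limma adjusted p passed 0.01, with dashed lines at the medians of all genes tested (0.17 and 0.12). Rrp9 and Mrto4 lie farthest left (-0.58 and -0.51 versus R7-I) and Taf1d farthest right (0.20 versus R7-III, no longer past the threshold after median-of-ratios scaling but past it after quantile normalization).

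Of the 5 genes for later maturation of the small subunit, 3 were lower in R7-II than R7-I (Rrp12, Bysl and Ltv1) and 2 lower than in R7-III (Rrp12 and Bysl), with 0 higher by limma (0 and 1 at an unadjusted p of 0.05). After median-of-ratios scaling 5 and 3 were lower, where 29.6% and 28.4% of all genes were. Rrp12, which takes part in export of the pre-small subunit, was at 141, 147 and 143 TPM in R7-I, 134, 130.4 and 139 in R7-III, and 123, 109.6 and 109 in R7-II. All R7-II libraries were below the rest, replicate 1 least so. R7-II was at -0.33 versus R7-I and -0.24 versus R7-III (standard error 0.05 in both, limma adjusted p = 8.86e-05 and 0.000965).

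Bysl, which is needed for the same subunit, was at -0.31 and -0.23 and passed against both clones, and Nob1, the nuclease that makes the final cut of its RNA, was at -0.11 and -0.07 and passed in neither. The opposite-strand gene Ccnd3 overlaps 9.37% of the exons of Bysl, so the value of Bysl may hold reads of Ccnd3. Ltv1, a chaperone that leaves the small subunit late in its maturation, was at 190.2, 177 and 187 TPM in R7-I, 157, 160.1 and 168 in R7-III, and 167, 165 and 164 in R7-II. R7-I was highest, with R7-II inside the range of R7-III. It had the largest difference of all members between R7-III and R7-I (-0.19, standard error 0.03, limma adjusted p = 0.00391), a call lost without R7-I replicate 1 or 3 or R7-III replicate 1 or 2 (limma adjusted p = 0.0229, 0.0169, 0.0217 and 0.0205). R7-II was lower than R7-I (-0.16, limma adjusted p = 0.00193, and 0.0109 without R7-I replicate 1), and versus R7-III it was at 0.03 on TPM and -0.10 after median-of-ratios scaling (limma adjusted p = 0.442 and 0.0224).

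Tsr1, a GTPase-like factor of the pre-small subunit, was the most abundant of these 5, at 201, 195 and 199 TPM in R7-I, 186, 182 and 192 in R7-III, and 208, 194 and 200.2 in R7-II. R7-II overlapped R7-I and lay above R7-III. Against R7-I the log2 fold change was 0.02 on TPM and -0.17 after median-of-ratios scaling, and versus R7-III 0.10 and -0.03, so the sign turned in both. On TPM neither passed (limma adjusted p = 0.693 and 0.0196), although without R7-II replicate 2 the difference from R7-III did (limma adjusted p = 0.00683). After quantile normalization Tsr1 was at 0.04 and 0.15 and passed versus R7-III (limma adjusted p = 0.240 and 0.00190). Exons of the gene Srr on the opposite strand overlap 32.3% of its exons, the most of any member, and reads of both could not be told apart.

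The 14 genes of large subunit assembly were lower in 11 cases versus R7-I and in 9 versus R7-III, with 0 and 1 higher by limma. At an unadjusted p of 0.05, 0 were higher versus R7-I. After median-of-ratios scaling 14 and 13 were lower and 0 higher, where 29.6% and 28.4% of all genes were lower. Mrto4, the assembly factor that holds the place of the stalk protein P0 at chr4:139347440-139352576, was at 326, 318 and 315 TPM in R7-I, 288, 293 and 294 in R7-III, and 222, 225 and 224 in R7-II. The 3 clones were apart, R7-I highest and R7-II lowest. R7-II was at -0.51 versus R7-I and -0.38 versus R7-III (standard error 0.02 in both, limma adjusted p = 8.31e-08 and 4.58e-07). R7-III was lower than R7-I as well (-0.13, standard error 0.02, limma adjusted p = 0.00499), a call lost when any 1 library of R7-I (limma adjusted p = 0.0289, 0.0173 and 0.0105 for replicates 1 to 3) or R7-III (limma adjusted p = 0.0279, 0.0213 and 0.0139) was left out.

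The PeBoW complex, which large subunit maturation requires, was split in size: Wdr12 was at -0.37 and -0.27 and Bop1 at -0.29 and -0.34 versus R7-I and R7-III, all past the threshold, while Pes1 was at -0.14 and -0.03 and passed only versus R7-I. Nop2, the 28S rRNA methyltransferase whose promoter is printed above, was at -0.36 and -0.28, Rrs1, which with Rpf2 brings in the 5S particle, at -0.34 and -0.28, and Rrp1b at -0.33 and -0.26, all past the threshold. Nop16 (-0.26 and -0.29), Nip7 (-0.27 and -0.21) and Brix1 (-0.25 and -0.15) passed against both clones too. Gnl3, the nucleolar GTPase nucleostemin, was at -0.17 and passed versus R7-I only (-0.12 versus R7-III). Ppan was at -0.06 and -0.07 and passed in neither.

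Noc2l, the most abundant of these 14, was at 365, 369 and 366 TPM in R7-I, 332, 372 and 384 in R7-III, and 326, 317 and 339 in R7-II. R7-III replicate 1 fell among the R7-II libraries, away from its own group. R7-II was at -0.16 versus R7-I and -0.14 versus R7-III and missed the threshold (limma adjusted p = 0.0113 and 0.0211), while without R7-III replicate 1 both passed, at -0.16 and -0.21 (limma adjusted p = 0.00123 and 0.000740). Against R7-I it also passed without R7-III replicate 3 (limma adjusted p = 0.00692). The opposite-strand gene Samd11 overlaps 20.9% of its exons. Noc3l, a partner of Noc2l in the nuclear stages of the large subunit, was at 68.1, 67.4 and 66.8 TPM in R7-I, 59.0, 63.1 and 62.5 in R7-III, and 69.7, 69.2 and 68.4 in R7-II.

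In Noc3l the R7-II libraries were highest and R7-III lowest, with no overlap. R7-II was higher than R7-III on TPM (0.17, standard error 0.03, limma adjusted p = 0.00168) and at 0.03 after median-of-ratios scaling (limma adjusted p = 0.408). Against R7-I it was at 0.03 on TPM and at -0.15 after that scaling (limma adjusted p = 0.388 and 0.00292), so its direction there followed the scaling.

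Members with a higher level had, on the whole, slightly more negative log2 fold changes in R7-II: Spearman's rho between the mean level and the log2 fold change was -0.31 versus R7-I and -0.33 versus R7-III over the 52 genes, and 0.09 for R7-III versus R7-I. A like difference by level was seen over all genes tested. Their median in R7-II was 0.17 and 0.12 versus R7-I and R7-III, against 0.03 and 0.02 for the 4494 at or above Polr1e. These are descriptions across genes of the same 9 libraries. The genes sit on 19 chromosomes, and the closest pair, Npm3 and Nolc1 on chromosome 19, are 326282 bases apart.

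Other genes of ribosome biogenesis, taken from fixed lists, gave 61 lower and 6 higher of 114 tested in R7-II versus R7-I. They gave 51 and 7 versus R7-III, and 4 and 0 for R7-III versus R7-I. Of all genes tested, 15.5% and 40.6%, 18.0% and 35.6%, and 1.45% and 6.96% were lower and higher. At an unadjusted p of 0.05 the last comparison gave 39 lower and 6 higher of the 114, against 964 and 2697 of the 11330 genes tested. After median-of-ratios scaling the 114 genes gave 99 lower and 1 higher, 78 and 3, and 26 and 0, with 29.6% and 25.2%, 28.4% and 25.0%, and 3.73% and 4.87% of all genes. Other RNA polymerase I genes were again mixed, with 3 lower and 2 higher of 9 versus R7-I, and 3 and 1 after median-of-ratios scaling. Cd3eap, a polymerase I subunit, was at 68.2 to 73.1 TPM in R7-I, 62.2 to 68.0 in R7-III and 50.5 to 53.4 in R7-II, without overlap with R7-II, and its log2 fold change versus R7-I was -0.44. Taf1b of SL1 was higher in R7-II (0.42), at 23.1 to 24.1, 22.1 to 23.2 and 29.5 to 34.5 TPM in the same order.

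Of 10 other snoRNP proteins and assembly factors, 7 were lower and 1 higher than in R7-I, led by Nhp2l1 (-0.50), the 15.5K protein of the box C/D and U3 particles. Of 36 other small subunit factors 21 were lower and 2 higher, led by Pno1 (-0.46). Of 45 other large subunit factors 23 were lower and 1 higher, led by Lyar (-0.48), and of 14 RNA exosome genes 7 were lower and 0 higher, led by Exosc6 (-0.55). After median-of-ratios scaling 8, 34, 42 and 12 genes of these lists were lower and 0 higher than in R7-I (limma).

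The ribosomal proteins themselves are given in a cytosolic and a mitochondrial set. On TPM, of 76 cytosolic ribosomal protein genes, 15 were lower and 4 higher in R7-II than R7-I, and 5 lower and 6 higher than in R7-III, with median log2 fold changes of -0.04 and 0.01. After median-of-ratios scaling 64 were lower than in R7-I and 23 lower than in R7-III, with 0 higher by limma and medians of -0.23 and -0.12, and after quantile normalization the medians were 0.02 and 0.03, so neither direction held under every scaling. Many of these genes have processed pseudogenes that could take reads. Of 74 mitochondrial ribosomal protein genes, 44 were lower and 1 higher than in R7-I and 40 lower and 0 higher than in R7-III by limma (54 lower and 2 higher at an unadjusted p of 0.05), with medians of -0.18 and -0.18, and after median-of-ratios scaling 70 and 58 were lower and 0 higher, with medians of -0.37 and -0.31. Of all genes tested, 15.5% and 18.0% were lower on TPM and 29.6% and 28.4% after that scaling.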

How the data were processed

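Per the study's methods and the labels, polyadenylated RNA was made into TruSeq libraries and sequenced as 100-base single-end reads without strand. The authors estimated gene levels with RSEM 1.2.11 on RefSeq genes of mm10 and deposited TPM values per gene symbol, rounded to 2 decimals; their own tests used DESeq2 1.8.1, whose results were not used here. TPM keeps no depth and no counting error.

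Genes with a maximum TPM above 1 were put on the log2(TPM + 1) scale and compared by limma 3.58.1 (R 4.3.3; lmFit, eBayes with trend). P-values were adjusted by Benjamini-Hochberg over every gene that passed the filter, with a threshold of 0.01. The fit was also run on simulated data with known changes in some genes. The median gene was not shifted there, so that run cannot speak to the choice of scaling. Values are on the log2(TPM + 1) scale, which understates the change of low genes. The 52 members, their role groups and the other lists were chosen with earlier results of these data known, so no test over a list was made. Values in every library were given, per role group, for the most abundant member, the member with the largest absolute log2 fold change in each of the 3 comparisons, and each member past the threshold against the direction of most; of the other lists, only the 2 with the largest change could be named. Alternatives were pseudocounts of 0.1 and 5, other filters, median-of-ratios scaling, quantile normalization, no trend, a threshold of 0.05, fits of 2 clones alone, a block for the replicate number, and each library left out in turn. Gene positions and exon overlaps are from the annotation of GRCm38, and promoters are RefSeq windows of GRCm38.p6.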

Additional observations from a re-analysis of the deposited data

How the results depend on the processing

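TPM holds no depth, so the reads behind a member are unknown, and 3 libraries per clone set the precision. Scaling mattered most. Median-of-ratios scaling gave member medians of -0.36, -0.26 and -0.12 for R7-II versus R7-I, R7-II versus R7-III and R7-III versus R7-I, with 0 members higher in each, 43 lower in the second and 16 in the third, and mean sums of 21155, 15508 and 19452 TPM in R7-I, R7-II and R7-III. Quantile normalization gave medians of -0.14 and -0.0841 for R7-II, 5 members lower in R7-III, and mean sums of 19596 and 16928 TPM in R7-I and R7-II. Of the 52 members, median-of-ratios scaling turned the sign of 7, 4 and 7 in the 3 comparisons, all to negative, and quantile normalization of 4, 6 and 1. Among the genes given in every library, the former turned, versus R7-I, Taf1d (-0.0727), Ddx10 (-0.15), Tsr1 (-0.17) and Noc3l (-0.15), versus R7-III, Tsr1 (-0.0315) and Ltv1 (-0.10), and between R7-III and R7-I, Nhp2 (-0.0402). Among the same genes quantile normalization turned Ddx10 and Noc3l versus R7-I (-0.0303 and -0.0658) and Nop58 and Ddx21 versus R7-III (0.0744 and 0.0264). By construction these scalings moved the median gene; the cause beyond that was not tested.

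A threshold of 0.05 gave 7 members higher in R7-II than R7-III, and 13 members lower and 2142 genes passing for R7-III versus R7-I. Fits of only the 2 clones compared, and limma without a trend, each left 0 members higher versus R7-I, and the latter left 0 lower in R7-III. Leaving out 1 library at a time, 0 to 2 members were higher in R7-II versus R7-I and 2 to 6 versus R7-III (6 without R7-II replicate 2), 31 to 36 and 22 to 27 were lower, and between R7-III and R7-I 0 to 3 members were lower and 436 (without R7-I replicate 1) to 1120 genes passed. Differences near 0 turned sign: Tsr1 versus R7-I went from -0.0106 (without R7-II replicate 1) to 0.0408, and for R7-III versus R7-I Rrn3 went from -0.0360 to 0.0264 (above 0 without R7-I replicate 3 or R7-III replicate 1, the latter 0.0244), Nhp2 from -0.0110 (without R7-III replicate 1) to 0.0290, Noc2l from -0.0606 to 0.0432 (without R7-III replicate 1) and Nolc1 from -0.0452 to 0.00342 (without R7-III replicate 2). The cause of these changes was not tested.

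The replicate numbers share only a number: correlations of deviations from the clone means were -0.0449 to 0.0888 for libraries with the same number and -0.0948 to 0.0649 for the others. With the number as a block, 35, 25 and 2 members were lower and 1, 2 and 0 higher in the 3 comparisons. Of 1026 values of named genes under an alternative, 926 kept their direction and side of the threshold, 42 no longer passed, 41 newly passed and 17 turned sign.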
